A study of Mus musculus with 5 samples.

Results

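Genes of the centromere, the kinetochore and the spindle checkpoint were followed in RNA-seq of cultured mouse epidermal stem cells. The set holds 43 genes chosen by the known function of their products, with earlier results of these data known. All 43 were found by symbol among the 17657 genes of the deposited table. Epidermal stem cells are the keratinocyte progenitors that renew the skin surface and hair follicle. The donors were male C57BL/6 mice with the label 8 weeks, and their skin cells were either wild type (WT, 3 libraries) or Angptl4 knockout (KO, 2 libraries), and all were cultured in KGM2, a keratinocyte growth medium. Angptl4 encodes a secreted inhibitor of lipoprotein lipase. Separate mice or cultures for each library are not stated, so the p-values rest on a spread between samples that may be technical. Neither the KO allele nor any pooling of mice is given in the sources used here.

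A centromere is marked by nucleosomes that carry the histone variant CENP-A, on which an inner kinetochore network stays bound through the cell cycle. In mitosis this network recruits the outer kinetochore, which grips spindle microtubules, and unattached kinetochores hold back anaphase through the spindle checkpoint. Many of these genes are transcribed mainly in dividing cells, late in the cell cycle, while some are transcribed throughout it.

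Most genes of the set were lower in the KO cells, and none was higher by the test. By edgeR's quasi-likelihood test over all 12957 genes tested, 36 of the 43 fell (adjusted p under 0.05), against a background of 20.4% of all tested genes lower in KO. No member rose, against 20.4% of all tested genes that were higher in KO, and 7 did not pass. Of the members, 27 fell by at least 2-fold, against 5.12% of all tested genes. KO1 and KO2 each lay below the lowest WT library for 42 members (34% of all tested genes) and above the highest for 1 member, Cenpb (32.5% of all tested genes). The median log2 change was -1.39 over the members and 0.02 over all tested genes. Summed over the set, the expression level on the per-length TPM scale came to 1493, 1452 and 1552 over the WT libraries (WT1 to WT3), against 868 in KO1 and 606 in KO2. In bulk RNA, fewer dividing cells and less of these transcripts per cell cannot be told apart.

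Library totals lay between 20283084 and 20773407 expected counts, and CPM values below are counts scaled to library size. Angptl4 itself was at 4.13 to 6.97 CPM in WT, with 0.83 CPM for KO1 and 1.06 for KO2. Replicate spread was wider in KO than in WT (biological coefficient of variation 28.8 against 5.21%). The calls depended on how many WT libraries entered the fit: 10, 17 and 13 members were lower without WT1, WT2 or WT3 (7.6, 8.94 and 8.77% of all tested genes), and 42 and 40 without KO1 or KO2 (30.5 and 30.9%). Bub3, Cenph, Cenpi, Cenpn, Cenpq, Cenpw, Mis18a, Pmf1, Sgo1 and Zw10 passed without each WT library in turn. The other 26 calls were lost without at least 1 WT library. A limma-voom fit used a separate spread for each group, set by a weight per group that all genes share. It called 32 members lower (12.1% of all tested genes), 27 of them among the 36. Limma-voom without these weights called 40 (21.1%). All 7 basal keratinocyte markers were detected. Trp63 (60.5% of the WT level, adjusted p = 0.00518) and Itga6 (53.1%, adjusted p = 0.00413) were lower in KO, Itgb4 and Dst were higher, and Krt5, Krt14 and Col17a1 did not pass. Of the hair follicle stem cell markers 4 of 5 tested genes were higher in KO, and Cd34 did not pass. Sox9 went from 111 to 115 CPM in WT to 181 in KO1 and 176 in KO2, while Krt15, Lgr5 and Lhx2 stayed at or below 3.77 CPM in every library. The summed level of this list was 113 to 116 CPM in WT, 187 in KO1 and 183 in KO2. Fibroblast markers summed to 2.23 to 8.43 CPM in WT and to 58.1 in KO1 and 18.7 in KO2, with 4 of 7 tested genes higher, and Lum was at 0 counts in WT1, WT3 and KO2. No tested melanocyte (5) or leukocyte (2) marker passed, and of 2 endothelial markers Kdr was lower. The part of these markers' cell types in the falls below was not tested.

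**Figure D1:**
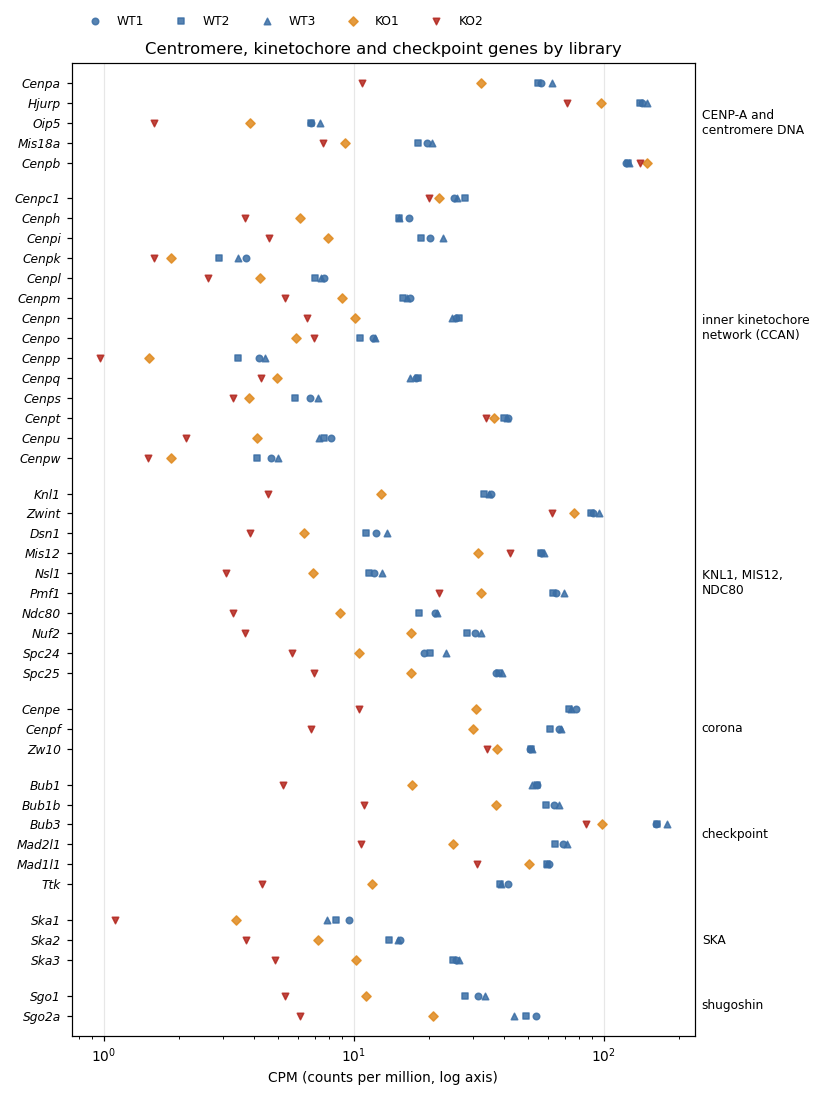
CPM of each of the 43 genes (log axis) in every library, grouped by complex, with blue symbols for the 3 WT libraries, orange diamonds for KO1 and red triangles for KO2. The KO symbols lie left of every WT symbol for 42 genes and right of them for Cenpb.

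The promoters of the set were read from RefSeq, because most of its members moved together and CCAAT boxes and the TTTGAA element are known from promoters of genes expressed late in the cell cycle. The RefSeq promoter table (GRCm38.p6) held 40 of the 43 genes, with 250 bases before and 50 after the start of the first transcript listed. That start was the outermost start of the gene for 19 of the 40 and lay further into the gene for 21. Searched on both strands as exact letters, TTTGAA was found in 16 of 40 member promoters (40.0%) and in 12.2% of the promoters of all genes tested. CCAAT was found in 26 (65.0% against 39.0%) and GGCGGGA, a match to E2F sites, in 13 (32.5% against 21.1%). Both TTTGAA and CCAAT were found in 12 (30.0% against 5.36%). A match is a description of the letters and not a bound site. Of the promoters with both motifs, the 3 whose genes had the smallest p were those of Bub3, Cenpn and Pmf1. That of Bub3 is shown, with that of Ttk, the gene with the largest fall, which was chosen after its values were seen. Each line gives the 150 bases before the outermost annotated start of the gene, 5′ to 3′, with CCAAT and TTCAAA, the reverse complement of TTTGAA, in capitals.
Bub3 (chr7:131560217-131560366, plus strand): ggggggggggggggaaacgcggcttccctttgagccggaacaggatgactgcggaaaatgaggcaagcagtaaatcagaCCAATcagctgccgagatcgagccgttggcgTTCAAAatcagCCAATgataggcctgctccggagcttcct
Ttk (chr9:83834501-83834650, plus strand): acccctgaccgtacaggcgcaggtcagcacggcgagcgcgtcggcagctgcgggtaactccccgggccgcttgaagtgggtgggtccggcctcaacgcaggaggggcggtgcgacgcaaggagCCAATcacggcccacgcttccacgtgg
In Bub3 the reversed TTTGAA starts 40 bases before the gene start, between CCAAT boxes that start 71 and 29 bases before it. In Ttk a CCAAT starts 27 bases before the gene start, and a further CCAAT and the reversed TTTGAA lie within the gene, from bases 11 and 46, and are not printed. Both motifs of Cenpn also lie within the gene, from bases 7 and 16, and the bases before Pmf1 overlap the neighbouring gene Slc25a44, so these windows are not printed.

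The first group marks the centromere: the CENP-A histone, the proteins that deposit it, and CENP-B, which binds centromeric satellite DNA. Of its 5 genes 3 fell and 2 did not pass. Mis18a, which primes centromeres for new CENP-A (chromosome 16, 90719312 to 90727371), was at 19.7, 18.1 and 20.5 CPM in WT1, WT2 and WT3, against 9.20 in KO1 and 7.54 in KO2. The KO libraries were close to each other and well under the WT range, and the log2 change was -1.21 ± 0.13 (SE; adjusted p = 0.00365 by edgeR). Hjurp, the chaperone that loads CENP-A, was at 143, 139 and 150 CPM in WT, with 98.0 CPM for KO1 and 71.4 for KO2, a log2 change of -0.77 ± 0.15 (adjusted p = 0.0131). Oip5, a partner of Mis18a, was at 6.72, 6.77 and 7.33 CPM in WT, against 3.87 in KO1 and 1.59 in KO2, a log2 change of -1.35 ± 0.38 (adjusted p = 0.0378). Hjurp overlaps Mroh2a and Oip5 overlaps Nusap1, so part of their reads may belong to those neighbours.

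Cenpa, which encodes the histone variant itself (chromosome 5, 30666877 to 30677805), was at 56.3, 54.8 and 62.0 CPM in WT, with 32.2 CPM for KO1 and 10.8 for KO2. Its groups did not overlap, but KO1 was 2.99 times KO2, and the change did not pass (log2 -1.42 ± 0.44, adjusted p = 0.0515). With a separate spread per group it passed (adjusted p = 0.017). Cenpb went the other way, from 123, 125 and 127 CPM in WT to 149 in KO1 and 140 in KO2 (log2 0.21 ± 0.07, adjusted p = 0.0543). It was the only member with a higher mean in KO, and it passed as higher under 3 of the 11 alternatives that kept all libraries. The 3 calls of the group became 1, 1 and 1 without WT1, WT2 or WT3. Without a WT library only Mis18a kept its call, with adjusted p of up to 0.117 for Oip5 and Hjurp.

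The inner kinetochore network, called the constitutive centromere-associated network, links CENP-A chromatin to the outer kinetochore. Of its 14 genes 13 fell and Cenpt did not pass, with a median log2 change of -1.24. Cenpq (chromosome 17, 40920809 to 40934574), of the subcomplex that also holds Cenpo, Cenpp and Cenpu, had the smallest p of all 43 genes. It was at 17.7, 18.1 and 16.8 CPM in WT, against 4.94 in KO1 and 4.25 in KO2, and the KO libraries lay close together. Its log2 change was -1.93 ± 0.12 (adjusted p = 0.00152 by edgeR), which left 26.2% of the WT level. The rest of this subcomplex changed by different amounts: Cenpp by -1.69, Cenpu by -1.29 and Cenpo by -0.86 on the log2 scale.

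Cenpn, which reads the CENP-A nucleosome directly, was at 25.7, 26.5 and 24.8 CPM in WT, with 10.1 CPM for KO1 and 6.52 for KO2 (log2 change -1.63 ± 0.20, adjusted p = 0.0042). Its partner Cenpl changed by -1.11. Cenph was at 16.7, 15.2 and 15.1 CPM in WT, against 6.12 in KO1 and 3.67 in KO2 (log2 change -1.68 ± 0.23, adjusted p = 0.00575). Of the proteins that assemble with CENP-H, Cenpi changed by -1.71, Cenpm by -1.20 and Cenpk by -0.95. The histone-fold genes differed among themselves, with Cenpw at -1.45, Cenps at -0.88 and Cenpt at -0.22. Cenpt, whose product is a main anchor of the NDC80 complex, was at 41.5, 39.8 and 41.2 CPM in WT, with 36.3 CPM for KO1 and 34.0 for KO2. These groups did not overlap, but the difference did not pass (adjusted p = 0.0697). Cenpc1, the central scaffold of the network, changed least among those that fell, from 25.1, 28.0 and 25.9 CPM in WT to 21.9 in KO1 and 20.1 in KO2 (log2 change -0.33 ± 0.10, adjusted p = 0.0436).

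These scaffold genes Cenpc1 and Cenpt kept 79.7 and 86.1% of their WT level, while the other 12 genes of the network kept between 26.2% (Cenpq) and 55.3% (Cenpo). Cenpp, Cenpw and Cenpk had the fewest counts of the network, with 20 to 38 in each KO library, so counting error limits their values. The 13 calls became 5, 8 and 7 without WT1, WT2 or WT3, with adjusted p of up to 0.15. Cenpc1 passed as lower under 5 of the 11 alternatives that kept all libraries, and it lost its call without each WT library in turn. Without KO2 its log2 change was -0.25. With a separate spread per group 6 genes of the network were called. Cenpk, Cenpn, Cenpo, Cenpp, Cenpq, Cenpt and Cenpu overlap other genes of the table, and whether the counting used strand is not given, so part of their reads may belong to those neighbours.

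**Figure D2:**
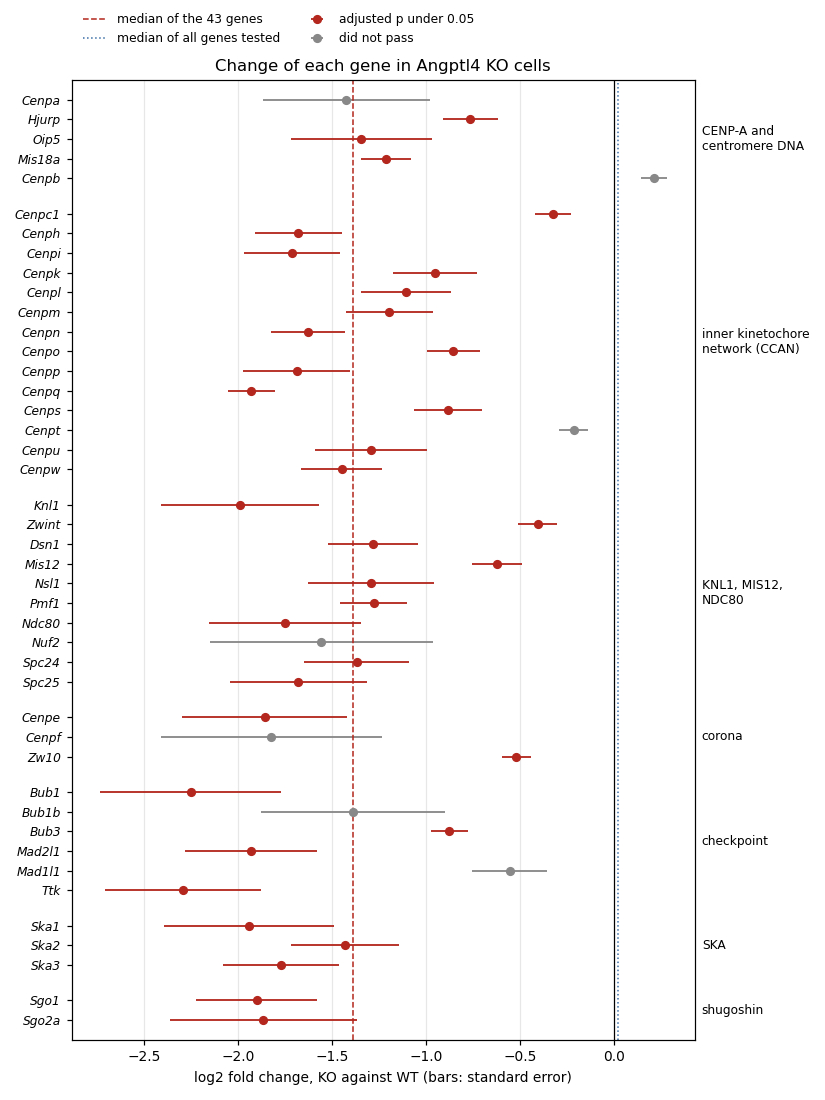
log2 fold change of each gene, KO against WT, with its standard error, in red where adjusted p was under 0.05 and in grey where it was not. The dashed line is the median of the 43 genes (-1.39) and the dotted line that of all genes tested (0.02). Cenpb lies to the right of 0, and Cenpt and Cenpc1 lie close to it.

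The outer kinetochore is built from KNL1, the MIS12 complex and the NDC80 complex, the last being the main microtubule coupler. Of 10 genes 9 fell, and Nuf2 did not pass. Knl1, the platform for checkpoint kinases, was at 35.4, 33.3 and 34.9 CPM in WT, against 12.8 in KO1 and 4.54 in KO2, which lay far apart (log2 change -1.99 ± 0.42, adjusted p = 0.0173). Zwint, which binds KNL1, changed much less, by -0.41, from 90.7, 89.1 and 96.0 CPM in WT to 76.2 in KO1 and 62.4 in KO2 (adjusted p = 0.0306).

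In the MIS12 complex, which joins the inner to the outer kinetochore, Pmf1 (chromosome 3, 88394138 to 88410445) was at 64.5, 62.9 and 69.7 CPM in WT, with 32.3 CPM for KO1 and 21.9 for KO2. Its log2 change was -1.28 ± 0.18 (adjusted p = 0.00575). Dsn1 was at 12.3, 11.2 and 13.6 CPM in WT, against 6.31 in KO1 and 3.87 in KO2, and its log2 change of -1.28 ± 0.24 was close to that of Pmf1 (adjusted p = 0.0123). Nsl1 also fell, by 1.29 on the log2 scale. Mis12 fell less (log2 change -0.63 ± 0.13, adjusted p = 0.0177) and had the reverse order of KO libraries, with 31.6 CPM for KO1 and 42.1 for KO2 against 56.3, 56.4 and 57.8 CPM in WT. Mis12 overlaps Derl2 and Nsl1 overlaps Tatdn3.

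In the NDC80 complex, Spc24 was at 19.1, 20.1 and 23.4 CPM in WT, with 10.5 CPM for KO1 and 5.65 for KO2 (log2 change -1.37 ± 0.28, adjusted p = 0.0156). Its partner Spc25 changed by -1.68 and Ndc80, which contacts the microtubule, by -1.75. Nuf2, the partner of NDC80, was at 30.7, 28.5 and 32.2 CPM in WT, against 17.0 in KO1 and 3.67 in KO2. KO1 was 4.64 times KO2, the widest gap among the 43 genes, and the change did not pass (log2 -1.56 ± 0.59, adjusted p = 0.0865). The 9 calls of the outer kinetochore became 1, 2 and 1 without WT1, WT2 or WT3, with adjusted p of up to 0.109. Only Pmf1 passed without each WT library in turn.

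Levels were compared between subunits on the TPM scale. In WT the NDC80 complex genes lay within 3.27-fold of each other, with Ndc80 at 18.5, Nuf2 at 24.6, Spc24 at 30.9 and Spc25 at 54.4 TPM (means of 3 libraries; SD 1.58, 1.55, 3.26 and 1.26). The gap between highest and lowest was 3.09-fold in KO1 and 3.41-fold in KO2, close to that in WT. The lowest gene was Ndc80 in WT and in KO1 (7.87 TPM, with Nuf2 at 13.55). In KO2 Nuf2 (2.92 TPM, 76 counts) and Ndc80 (2.95 TPM, 68 counts) lay too close to rank. MIS12 complex genes were more unequal in WT, with Nsl1 at 8.96, Dsn1 at 10.8, Mis12 at 38.3 and Pmf1 at 125 TPM (SD 0.59, 1.0, 1.0 and 6.93). The neighbours Nsl1 and Dsn1 differed by little more than their SDs. The highest was 13.9 to 14.3 times the lowest in the WT libraries, 13.2 times in KO1 and 20.8 times in KO2.

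**Figure D3:**
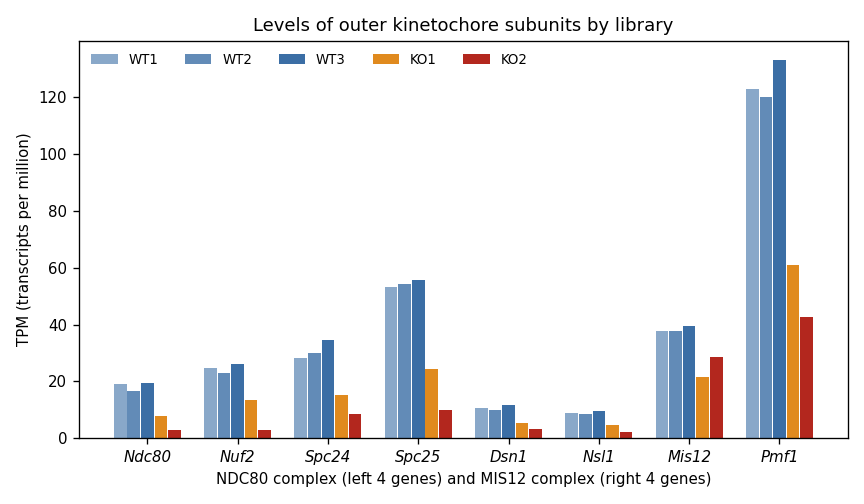
Bars of TPM in each library for the genes of the NDC80 complex (left) and the MIS12 complex (right), WT in blue shades, KO1 in orange and KO2 in red. KO2 is the lowest library for 7 of the 8 genes, and Mis12 is lowest in KO1.

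The fibrous corona forms on unattached kinetochores and captures microtubules from the side. Cenpe, a kinesin motor of the corona, was at 77.3, 72.8 and 74.3 CPM in WT, with 30.7 CPM for KO1 and 10.5 for KO2 (log2 change -1.86 ± 0.44, adjusted p = 0.0237). Cenpf, a large coiled-coil protein of the corona, was at 66.4, 61.1 and 67.7 CPM in WT. Its levels of 30.0 CPM in KO1 and 6.77 CPM in KO2 were 4.43-fold apart, and it did not pass (log2 -1.82 ± 0.59, adjusted p = 0.0564). Zw10, which brings dynein to kinetochores and also acts in membrane traffic, was at 50.7, 51.2 and 51.7 CPM in WT, against 37.3 in KO1 and 34.1 in KO2. Its fall was small but steady (log2 change -0.52 ± 0.08, adjusted p = 0.00639). Cenpe lost its call without WT1, WT2 or WT3 (adjusted p of up to 0.0822), while Zw10 kept it.

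The spindle checkpoint genes held the largest falls of the set. Ttk, the kinase that starts checkpoint signalling (chromosome 9, 83834651 to 83872390), was at 41.3, 38.7 and 39.0 CPM in WT, with 11.9 CPM for KO1 and 4.30 for KO2. Its log2 change of -2.29 ± 0.42 (adjusted p = 0.0113) left 20.4% of the WT level. Bub1, a kinase that docks on KNL1 (chromosome 2, 127800197 to 127831859), was at 54.3, 54.2 and 51.5 CPM in WT, against 17.2 in KO1 and 5.22 in KO2, a log2 change of -2.25 ± 0.48 (adjusted p = 0.018). In KO1 these kinases stood at 30.0% (Ttk) and 32.2% (Bub1) of the WT mean, and in KO2 at 10.9 and 9.78%.

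Mad2l1, which encodes the MAD2 protein that sequesters the anaphase activator, was at 68.6, 64.0 and 71.1 CPM in WT, with 24.9 CPM for KO1 and 10.7 for KO2 (log2 change -1.93 ± 0.35, adjusted p = 0.0117). Bub3, which recruits BUB1 and BUBR1 and was the most abundant member by TPM (162 ± 8.45 TPM, SD, n = 3, in WT), fell by a smaller and more even amount. It was at 163, 163 and 178 CPM in WT, against 98.2 in KO1 and 84.9 in KO2 (log2 change -0.88 ± 0.10, adjusted p = 0.00376). Bub1b, which encodes BUBR1, was at 63.6, 58.8 and 66.1 CPM in WT, with 37.0 CPM for KO1 and 11.0 for KO2, and did not pass (log2 -1.39 ± 0.49, adjusted p = 0.0705). Mad1l1, the anchor of MAD2 at kinetochores, was at 60.7, 59.6 and 59.5 CPM in WT, against 50.3 in KO1 and 31.3 in KO2 (log2 -0.56 ± 0.20, adjusted p = 0.0758). The 4 calls of this group became 1, 3 and 1 without WT1, WT2 or WT3. All 6 genes were called lower when each group had its own spread. Bub3 was the gene that passed without each WT library in turn, and the adjusted p of Bub1 without a WT library was up to 0.0695.

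The SKA complex helps NDC80 hold on to shortening microtubules, and shugoshins protect the cohesion of sister centromeres. All 3 SKA genes fell. Ska1 was at 9.60, 8.47 and 7.81 CPM in WT, with 3.38 CPM for KO1 and 1.11 for KO2 (log2 change -1.94 ± 0.45, adjusted p = 0.023). Ska2 changed by -1.43 and Ska3 by -1.77, with Ska3 at 25.6, 25.0 and 26.3 CPM in WT, against 10.2 in KO1 and 4.83 in KO2. Ska3 overlaps Mrpl57, so part of its reads may belong to that neighbour. Both shugoshins fell. Sgo1 was at 31.5, 27.9 and 33.5 CPM in WT, with 11.3 CPM for KO1 and 5.32 for KO2 (log2 change -1.90 ± 0.32, adjusted p = 0.00937). Sgo2a was at 53.4, 49.1 and 43.9 CPM in WT, against 20.7 in KO1 and 6.09 in KO2 (log2 change -1.87 ± 0.50, adjusted p = 0.0333). The 3 SKA calls became 0, 1 and 1 without WT1, WT2 or WT3. Of the shugoshins Sgo1 kept its call there, and Sgo2a lost it (adjusted p of up to 0.105).

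The KO libraries were not alike for these genes. KO2 was below KO1 for 41 of 43 members (49.8% of all tested genes), the exceptions being Mis12 and Cenpo. The median member stood at 50.3% of its WT mean in KO1 and at 25.4% in KO2. KO2 was below KO1 by over 2-fold for 17 members (6.28% of all tested genes). All 17 lay outside the inner network: 0 of its 14 genes passed that ratio, where the range was 0.85 to 1.93, against 17 of the 29 other members, where it was 0.75 to 4.64. The widest gaps were those of Nuf2, Cenpf, Sgo2a (3.40), Bub1b (3.37) and Bub1 (3.29). With 2 KO libraries this split between complexes is a description and has no test. The 4 genes Cenpa, Nuf2, Cenpf and Bub1b missed the threshold with mean changes as large as those of genes that passed, and in each KO1 was at least 2.99 times KO2. Sgo2a, Bub1 and Ska1 (3.04) passed with wider gaps than Cenpa. Their log2 changes of -1.87, -2.25 and -1.94 were larger falls than those of these 4 genes (-1.39 to -1.82). Why the 4 genes missed the threshold was not tested.

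**Figure D4:**
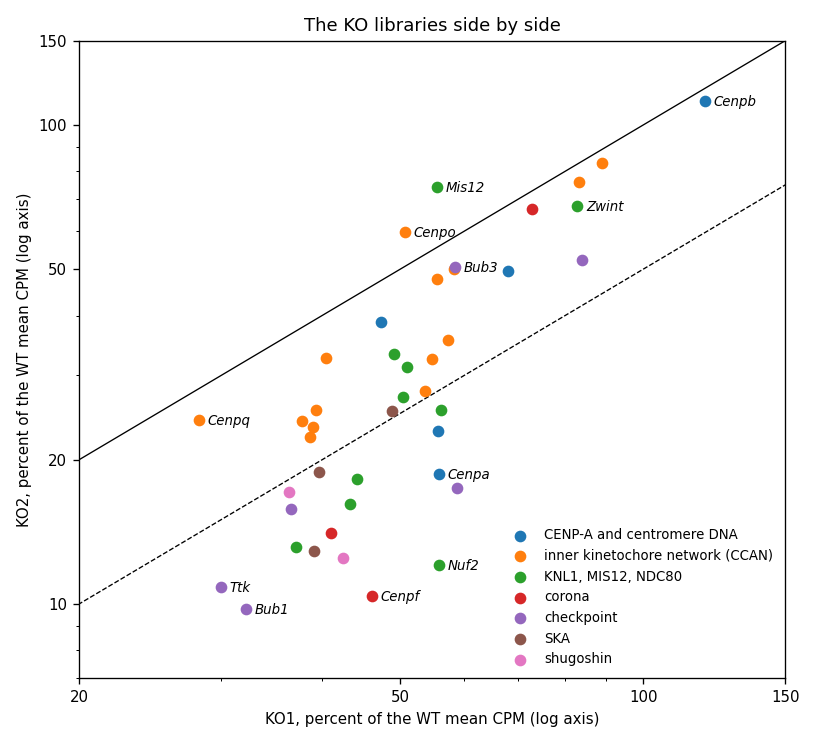
Each gene's CPM in KO1 (x axis) and KO2 (y axis) as a percentage of its WT mean, both on log axes, coloured by complex. The solid line marks equal values and the dashed line a KO2 value 2-fold below KO1. All 14 inner network genes lie above the dashed line and 17 others lie below it.

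A further 21 genes that work with the kinetochore were read from the same fit. Of these 15 fell and 1 rose (20.4% of all tested genes were lower and 20.4% higher), and 5 did not pass. All 5 genes of the chromosomal passenger complex and its recruiting kinase fell, among them Birc5, which encodes survivin (log2 change -1.87, adjusted p = 0.0169), and Haspin (-1.27, adjusted p = 0.017). The partners of Zw10 in the corona fell as well, with Zwilch at -1.72 and Kntc1 at -1.58. Trip13, an ATPase that remodels MAD2, was at 40.0, 38.7 and 37.6 CPM in WT, with 10.3 CPM for KO1 and 7.39 for KO2 (log2 change -2.13 ± 0.16, adjusted p = 0.00196). Its cofactor Mad2l1bp did not pass, at 9.34 to 10.1 CPM in WT, against 11.3 in KO1 and 9.57 in KO2. Cdc20, the anaphase activator that MAD2 binds, changed by -1.63 (adjusted p = 0.0483). Haspin overlaps Itgae, Zwilch overlaps Lctl and Cdc20 overlaps Elovl1, so part of their reads may belong to those neighbours.

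Itgb3bp, which encodes CENP-R, changed by -1.04, while Cenpx and Cenpv did not pass. Among microtubule regulators Ckap5 and Kif18a changed by -0.77 and -1.82. Cenpx overlaps Lrrc45, Ckap5 overlaps F2 and Kif18a overlaps Mettl15, so part of their reads may belong to those neighbours. Clasp1, which stabilises microtubule ends, was the gene that rose, from 76.2 to 77.7 CPM in WT to 109 in KO1 and 88.4 in KO2 (log2 change 0.35 ± 0.10, adjusted p = 0.04). Plk1, a mitotic kinase, did not pass, at 154 to 158 CPM in WT, with 65.4 CPM for KO1 and 13.5 for KO2 (adjusted p = 0.0551). The 15 lower became 3, 5 and 4 without WT1, WT2 or WT3 (7.6, 8.94 and 8.77% of all tested genes), and Clasp1 was not called without any of these.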

How the data were processed

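Per the submitters' processing notes, the authors used RSEM 1.3.1 and GRCm38.p6 to make the expected counts, which split reads shared between genes, and 32.1 to 34.0% of values per library were not whole (tolerance 0.005). TPM, a per-length scale within each library, is named so per the file headers. The sources used here give no aligner, annotation or strand setting. Values in 5 FPKM columns stayed unused.

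Expected counts were rounded and all genes were fitted in R 4.3.3 with edgeR 4.0.16 (filterByExpr by group, TMM, glmQLFit and glmQLFTest, two-sided, Benjamini-Hochberg over all tested genes, threshold 0.05, no covariate). All 43 members passed the filter. CPM values use TMM library sizes, and standard errors come from the test statistic. Alternatives used limma 3.58.1, DESeq2 1.42.0, other scalings and filters, log2(TPM + 1) and log2(TPM + 0.1), the replicate number as a block and each library left out. A lone KO library took its spread from WT.

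The members and lists were chosen with earlier results of these data known. Values per library are given for the members of each complex with the smallest p (up to 3), those that went against the majority, and those with the widest gap between KO libraries, as fixed by rule. The other members and Angptl4 were added after their values were seen. Further genes were named by smallest p, up to 2 per group, and the rest of them after their values were seen. The values of a gene among them are not reported here. Coordinates are those of the deposited table. Promoters are the first window listed per gene in RefSeq, without Nsl1, Ska1 and Spc24, and are printed up to the gene's outermost RefSeq start where a motif lies before it and no other gene overlaps. Overlaps leave out neighbours annotated over 1 Mb.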

Additional observations from a re-analysis of the deposited data

How the results depend on the processing

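Every one of the 43 members kept its direction in all 16 alternatives. The number lower stayed between 32 and 42 in all but the following. It was 10 to 17 when 1 WT library was left out and 22 with the replicate number as a block (6.13% of all tested genes), all 22 among the 36. Whether a shared replicate number marks a shared batch is not stated. Deviations from the group mean correlated at 0.01 for WT1 and KO1 and at 0.11 for WT2 and KO2 across genes. With 2 KO libraries the KO deviations mirror each other, so these correlations cannot exclude a pairing. The number of members higher was 0 by the main edgeR fit (with 1 member, Cenpb, at an unadjusted p of 0.0229). It was 1, Cenpb, with total count scaling (21.2% of all tested genes), with DESeq2 (21.9%) and with the stricter count filter (22%). That filter asked for mean counts of 10 or more in a group and 50 or more over all libraries. Leaving out 1 WT library in turn gave 0 (7.62 to 8.81%). The log2 change of Cenpb was 0.158 without KO1 and 0.263 without KO2. Of the 21 further genes the number lower ranged from 3 to 5 with 1 WT library left out (7.6 to 8.94% of all tested genes). The number higher was then 0 (7.62 to 8.81%). It was also 0 with a separate spread per group, without a count filter, with the replicate block and in the 3 TPM fits (6.21 to 18.1%). Without KO1 the log2 change turned sign for Mad2l1bp (-0.0443), Cenpx (-0.0005) and Cenpv (0.157), none of which passed with all libraries. Without KO2 it was 0.2155, 0.2411 and -0.3593. The cause was not tested. Members with 20 to 38 counts in a KO library (Cenpk, Cenpp, Cenpw, Oip5, Ska1) are limited by depth.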
